A study of Mus musculus with 6 samples.

Results

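The 10 genes described here encode core parts of the Notch pathway, namely the receptors Notch1 and Notch2, the ligands Jag1 and Jag2, the receptor-modifying enzyme Lfng, the nuclear proteins Rbpj and Maml1, the target gene Hey1, and the inhibitors Numb and Numbl. They were chosen by name and were all among the 17068 genes of the count table of bulk RNA-Seq of embryonic mouse cortex. Notch is a receptor that is cut when a ligand on a neighbouring cell binds it. The freed intracellular part enters the nucleus, joins the DNA-binding protein RBPJ and a Mastermind coactivator, and turns on Hes and Hey repressor genes. In the developing cortex this signal is known for keeping radial glia (RG), the neural stem cells that line the ventricle, from turning into neurons, and in blood vessels it takes part in the choice between sprouting and stable endothelial cells.

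The libraries came from lateral cortex of female c57/bl6 embryos at embryonic day (E) 12.5. The 4 controls carried no Cre, and of them controls 1, 2 and 4 were Foxp1 fl/+ and control 3 was Foxp1 fl/fl. The 2 libraries labelled Foxp1cKO were Foxp1 fl/fl;Emx1Cre, in which a Cre expressed in progenitors of the dorsal telencephalon deletes the floxed part of Foxp1, so that blood vessels, microglia and cells born outside that region keep their floxed alleles. The design asks which transcripts differ when RG lose Foxp1, a repressor of the forkhead family. The labels give no litter, and p-values measure the spread between these libraries.

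Library totals ran from 50076008 to 78346979 counts, and every member was above the floor of 3 counts in each library. Levels are given in CPM, the counts of a gene scaled to the size of its library, with library sizes set by trimmed means (TMM). Foxp1 itself was at 59.7, 60.8, 71.2 and 79.1 CPM in controls 1 to 4 and at 83.2 and 76.8 CPM in the libraries labelled Foxp1cKO 1 and 2. It was thus not lower in the latter (log2 difference 0.24, Benjamini-Hochberg adjusted p = 0.468 by the quasi-likelihood test of edgeR). These counts cover the whole gene and were not split into floxed and remaining exons. Control 3 stood apart by 1006 CPM summed over 12 ventral forebrain markers against 297 to 449 CPM in the other controls, with Nkx2-1 at 13.2 CPM against 0.216 to 0.596 CPM. It is also the control with the Foxp1 fl/fl genotype, so the genotype and the library cannot be told apart. Control 4 stood apart by 3615 CPM summed over 10 red cell genes, against 1115 to 1473 CPM in the other controls and 3909 and 4200 CPM in the libraries labelled Foxp1cKO. Of 12 listed progenitor markers, 10 were in the table, and they summed to 2689 to 3718 CPM over the libraries. No tissue other than cortex was there to compare, so this sum does not test the cortical label.

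RBPJ binds DNA at a short core sequence, so promoter windows of 250 bases before to 50 bases after the RefSeq start site (build GRCm38.p6) were searched on both strands for the letters TGGGAA. Windows were matched for 9 of the 10 members, and Lfng and Rbpj held the core. The letters were in 25.6% of the 32851 promoter windows of all genes, so a match is common and is a description only. The windows of Lfng at chr5:140607091-140607390 (plus strand) and of Rbpj at chr5:53590096-53590395 (plus strand) are shown because each holds 2 matches, Hes5 at chr4:154960673-154960972 (plus strand) because it is a classical Notch target, and Notch1 at chr2:26503773-26504072 (minus strand) because it had the lowest p of the members. Capitals mark TGGGAA or its reverse complement TTCCCA.
Lfng: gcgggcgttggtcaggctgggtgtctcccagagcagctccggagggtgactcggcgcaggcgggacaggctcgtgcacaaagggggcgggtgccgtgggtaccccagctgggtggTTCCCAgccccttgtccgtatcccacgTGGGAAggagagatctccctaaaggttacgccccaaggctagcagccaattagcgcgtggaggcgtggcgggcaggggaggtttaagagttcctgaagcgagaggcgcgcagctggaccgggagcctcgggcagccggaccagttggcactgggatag
Rbpj: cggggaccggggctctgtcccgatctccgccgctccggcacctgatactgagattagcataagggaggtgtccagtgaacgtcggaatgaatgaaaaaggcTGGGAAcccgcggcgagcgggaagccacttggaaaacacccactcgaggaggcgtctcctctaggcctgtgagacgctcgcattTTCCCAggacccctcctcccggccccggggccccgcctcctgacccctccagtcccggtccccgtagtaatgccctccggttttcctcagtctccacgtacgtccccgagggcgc
Hes5: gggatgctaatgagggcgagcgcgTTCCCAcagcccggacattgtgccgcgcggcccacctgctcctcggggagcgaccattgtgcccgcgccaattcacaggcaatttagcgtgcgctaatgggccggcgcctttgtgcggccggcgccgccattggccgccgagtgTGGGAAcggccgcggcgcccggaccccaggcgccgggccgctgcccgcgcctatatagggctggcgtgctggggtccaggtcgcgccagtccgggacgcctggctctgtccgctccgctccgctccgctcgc
Notch1: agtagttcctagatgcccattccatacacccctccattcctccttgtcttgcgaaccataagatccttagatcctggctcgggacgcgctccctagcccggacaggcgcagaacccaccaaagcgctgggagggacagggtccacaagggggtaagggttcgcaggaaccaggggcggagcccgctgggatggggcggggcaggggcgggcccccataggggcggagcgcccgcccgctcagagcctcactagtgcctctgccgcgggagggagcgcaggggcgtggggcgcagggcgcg
Counted from the start site, the matches began at positions -135 and -108 in Lfng, -149 and -65 in Rbpj, and -226 and -82 in Hes5. A second start site of Rbpj has a window at chr5:53590236-53590535, which overlaps the printed one and holds the second of its matches, at position -205 from that site. Windows of 0 members held the forkhead letters TGTTTAC, which 3.65% of all windows held. Windows of 4 members held the hypoxia response letters ACGTG, which 19.6% of all windows held. These counts are of the 9 members with a window, which had 12 windows together. The shares here and for TGGGAA are per window, so counts of members and shares of windows differ in unit.

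Levels of different genes were compared per kilobase of merged exons. In the controls Notch1 was at 21.6 ± 0.956 CPM per kb (SD, n = 4) and the target gene Hey1 at 20.7 ± 5.16 CPM per kb. Notch2 at 14.9 ± 1.81, Lfng at 14.5 ± 2.53 and Numb at 13.4 ± 1.61 CPM per kb came next. These 5 genes formed a chain of neighbours whose control values overlapped. Rbpj at 11.0 ± 0.519 and Maml1 at 10.1 ± 0.646 CPM per kb overlapped each other, and both control ranges lay below that of Numb. Numbl at 7.12 ± 0.997 and Jag1 at 6.32 ± 1.11 CPM per kb also overlapped. Jag2 was below every control value of Jag1, at 2.32 ± 0.519 CPM per kb. The order of the middle genes depended on the length used, since the merged exons of Rbpj and Numbl are much longer than their longest coding transcripts. With the latter length Rbpj was at 25.6 and Numbl at 22.4 CPM per kb, next after Notch1 and Hey1, while Jag1 and Jag2 stayed the lowest.

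**Figure D1:**
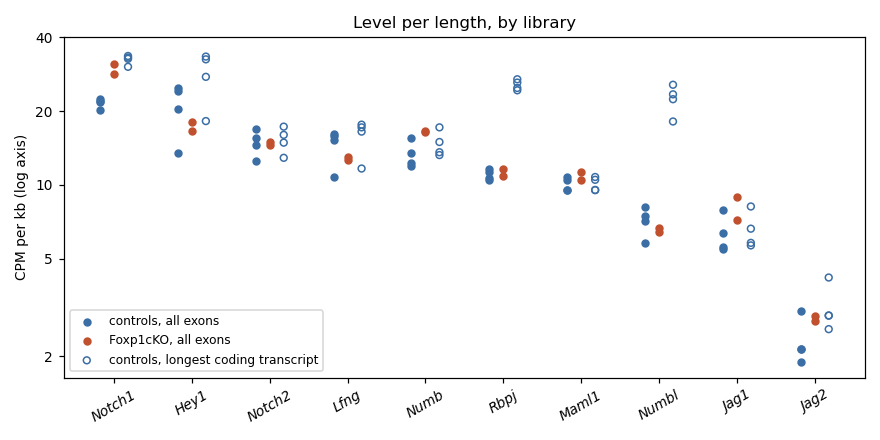
Level of each member in CPM per kilobase of merged exons, on a log axis, with 1 filled point per library (controls blue, libraries labelled Foxp1cKO orange) and open points for the controls with the length of the longest coding transcript. Notch1 and Hey1 have the highest control means and Jag2 the lowest, and Rbpj and Numbl move most with the length used.

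Between the groups, none of the 10 members passed an adjusted p of 0.05 in edgeR's quasi-likelihood test over all genes. In that test 26 of the 17068 genes were higher in the libraries labelled Foxp1cKO (0.152%) and 0 were lower (0%). At an unadjusted p under 0.05, 2 members were higher, Notch1 and Numb, and 0 were lower, where 6.53% and 6.5% of all genes were. The same 2 members were the ones in which both libraries labelled Foxp1cKO lay above every control, as 11.5% of all genes did, and 0 members lay below every control, as 13.1% of all genes did. The log2 difference was above 0 in 6 members and below 0 in 4, with a median of 0.068 against -0.0044 over all genes. With DESeq2, run as an alternative, 1 member passed, Notch1, where 2.06% of the 15067 genes with an adjusted p were called higher and 1.31% lower.

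Notch1 (ENSMUSG00000026923.15, chr2:26457903-26516663 of GRCm38, minus strand) is the main Notch receptor of RG. It was at 288, 314, 310 and 318 CPM in controls 1 to 4 and at 441 and 402 CPM in the libraries labelled Foxp1cKO 1 and 2. The controls were close together, with the highest 1.11 times the lowest, and both other libraries lay well above them. Between 17807 and 30532 counts stood behind each value. The means were 307 ± 13.6 CPM (SD, n = 4) and 422 ± 27.1 CPM (n = 2), a fold of 1.37 and a log2 difference of 0.46 (SE 0.0784, 95% interval 0.27 to 0.64). Its unadjusted p of 0.000631 ranked 70 among all genes, and its adjusted p was 0.152 by edgeR's quasi-likelihood test. DESeq2 gave a log2 difference of 0.46 and an adjusted p of 9.16e-05, so the call depended on the test. Over the leave-one-out fits of edgeR the log2 difference of Notch1 stayed between 0.39 and 0.50. The ends of this range came from the libraries labelled Foxp1cKO, with 0.39 without number 1 and 0.50 without number 2. Each of those 2 fits leaves 1 library in the group, so only its difference is given. The adjusted p of Notch1 by edgeR was 0.527, 0.514, 0.147 and 0.0780 without controls 1, 2, 3 and 4, so it depended on single controls. Its dependence on the single libraries labelled Foxp1cKO was not assessed by p.

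Notch1 exons overlap those of 0610009E02Rik by 1068 bases and of Gm13568 by 414 bases, both on the other strand, and the strand setting of the counting is not given in the sources used here. The former was at 2.43 to 3.86 CPM in the controls and 4.77 and 5.09 CPM in the libraries labelled Foxp1cKO (log2 difference 0.71). The latter was not in the count table. The part of either overlap in the Notch1 counts was not tested. Library by library, the 3 genes whose log2 CPM profile lay nearest to that of Notch1 were Rasal2, Zfp654 and Gm26910, with root mean square differences of 0.0367, 0.0402 and 0.0470 over 6 libraries, among 13854 genes with a mean of at least 1 CPM. Rasal2, for example, was at 128 to 145 CPM in the controls and 202 and 176 CPM in the libraries labelled Foxp1cKO.

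Notch2 (ENSMUSG00000027878.11, chr3:98013527-98150361, plus strand), a second receptor with the same ligands, was at 181, 156, 135 and 168 CPM in controls 1 to 4 and at 161 and 157 CPM in the libraries labelled Foxp1cKO. The latter lay inside the control range. For Notch2 the log2 difference was -0.01, with a 95% interval of -0.29 to 0.27 and an adjusted p of 0.978 in edgeR's quasi-likelihood test. The ratio of Notch1 to Notch2 per kb within a library, chosen after the values were seen, was 1.201, 1.52, 1.73 and 1.44 in controls 1 to 4 and 2.08 and 1.94 in the libraries labelled Foxp1cKO. Both of the latter lay above every control. An exact permutation test of a single value with 4 libraries against 2 cannot go below a two-sided p of 0.133, so none was run on the ratios.

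Of the other receptors, Notch3, which in embryos marks mural cells of vessels and also RG, was at 132, 128, 120 and 160 CPM in the controls and at 177 and 167 CPM in the libraries labelled Foxp1cKO. Both of the latter lay above every control, and the log2 difference was 0.35 (SE 0.119, adjusted p = 0.316 by edgeR). Notch4, a receptor of endothelial cells, was at 9.91 to 12.1 CPM in the controls, and both libraries labelled Foxp1cKO lay inside that range, with a log2 difference of 0.03. The ratio of Notch1 to Notch3 per kb overlapped between the groups, at 1.13 to 1.47 in the controls against 1.42 and 1.37.

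**Figure D2:**
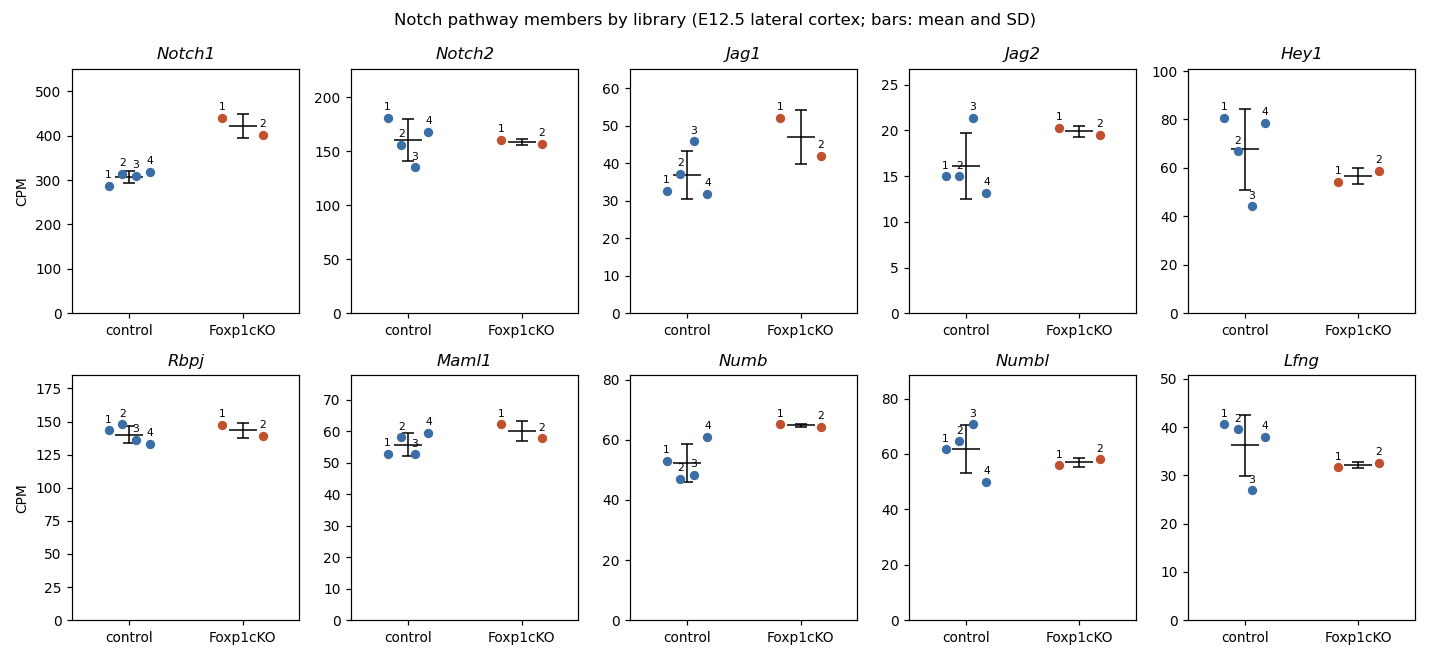
CPM of the 10 members in each of the 6 libraries, 1 panel per gene with its own axis from 0, controls 1 to 4 in blue and the libraries labelled Foxp1cKO 1 and 2 in orange, and bars for the mean and SD. In Notch1 and Numb both libraries labelled Foxp1cKO lie above every control, and in the other 8 members the groups overlap.

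Jag1 (ENSMUSG00000027276.7, chr2:137081456-137116644, minus strand), a transmembrane ligand made by neural and vascular cells, was at 32.6, 37.2, 45.8 and 31.8 CPM in controls 1 to 4 and at 52.2 and 41.9 CPM in the libraries labelled Foxp1cKO. Control 3 lay between the latter, and the other controls lay below both. The log2 difference of Jag1 was 0.35 (SE 0.168, 95% interval -0.05 to 0.75, adjusted p = 0.424 by edgeR), and it was 0.46 without control 3. Without the library labelled Foxp1cKO 1 it was 0.19.

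Jag2 (ENSMUSG00000002799.6, chr12:112907819-112929776, minus strand), its paralog, was at 14.97, 14.98, 21.4 and 13.2 CPM in controls 1 to 4 and at 20.3 and 19.5 CPM in the libraries labelled Foxp1cKO. As for Jag1, control 3 was the highest control, and here it exceeded both libraries labelled Foxp1cKO. Jag2 had a log2 difference of 0.30 (95% interval -0.16 to 0.76, adjusted p = 0.539 by edgeR), and without control 3 it was 0.45 (adjusted p = 0.173), past 1.5 times the value with all controls. The ratio of Jag1 to Jag2 per kb averaged 2.75 ± 0.203 for controls against 2.83 ± 0.358 for the libraries labelled Foxp1cKO, and the groups overlapped.

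The Delta-like ligands, the other main family of Notch ligands, differed in their values. Dll1, made by newborn neurons and intermediate progenitors, was at 119, 117, 102 and 120 CPM in the controls and at 111 and 110 CPM in the libraries labelled Foxp1cKO, with a log2 difference of -0.05 (95% interval -0.26 to 0.16). Dll3 had a log2 difference of -0.08. Dll4, the ligand of endothelial tip cells, was at 4.80 to 5.87 CPM in the controls and at 8.01 and 7.36 CPM in the libraries labelled Foxp1cKO. Both of the latter lay above every control, with a log2 difference of 0.57 (SE 0.155) and an adjusted p of 0.266 by edgeR and 0.0173 by DESeq2. Of 14 endothelial markers, 1 passed as higher by edgeR, where 0.152% of all genes did. This was Flt1, with a log2 difference of 1.64 (adjusted p = 0.018 by edgeR). In 3 of the 14, both libraries labelled Foxp1cKO lay above every control, where 11.5% of all genes did. The log2 difference was above 0 in 10 of these markers and below 0 in 4, with a median of 0.12. The 14 summed to 174 to 271 CPM in the controls and to 247 and 302 CPM in the libraries labelled Foxp1cKO, so the sums overlapped. Mural markers, 9 in the table, summed to 76.3 to 97.3 CPM in the controls and to 118 and 128 CPM. Their part in the values of Notch3, Dll4 and the Jagged genes was not tested, and in bulk tissue more cells of a type and more RNA per cell cannot be told apart.

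Of the atypical ligands, Dner, on neurons, spread widely, at 59.6 to 149 CPM in the controls and 113 and 100 CPM in the libraries labelled Foxp1cKO. Dlk1, a ligand that lacks the receptor-activating domain, was at 24.6 CPM in control 3 and at 8.99 to 11.3 CPM in the other controls, and at 24.1 and 16.9 CPM in the libraries labelled Foxp1cKO. Dlk2 was at 1.51 to 3.39 CPM in the controls and 1.95 and 2.29 CPM in the libraries labelled Foxp1cKO. All 3 overlapped between the groups.

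Lfng (ENSMUSG00000029570.5, chr5:140607320-140615545, plus strand), whose promoter window is printed above, encodes a Fringe enzyme that adds a sugar to Notch and so shifts it towards Delta ligands. It was at 40.6, 39.6, 26.9 and 38.0 CPM in controls 1 to 4 and at 31.7 and 32.6 CPM in the libraries labelled Foxp1cKO. Those 2 libraries lay between control 3 and the other controls. The log2 difference was -0.17 (95% interval -0.57 to 0.23, adjusted p = 0.693 by edgeR), and without control 3 it was -0.31 (adjusted p = 0.175), again past 1.5 times. Mfng, the second Fringe, was at 101 to 116 CPM in the controls and at 89.0 and 90.9 CPM in the libraries labelled Foxp1cKO, both below every control (log2 difference -0.27, adjusted p = 0.282 by edgeR). Rfng had a log2 difference of -0.26 and overlapped. Of the 7 genes of Notch glycosylation listed beside Lfng, 6 had a log2 difference below 0, and the median was -0.10.

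Rbpj (ENSMUSG00000039191.12, chr5:53466152-53657362, plus strand), the DNA-binding protein of the pathway, was at 143, 148, 136 and 133 CPM in controls 1 to 4 and at 147 and 139 CPM in the libraries labelled Foxp1cKO. It was among the steadiest members, with the highest control 1.11 times the lowest, and both groups overlapped. Its log2 difference was 0.03, with a 95% interval of -0.15 to 0.21 (adjusted p = 0.891 by edgeR). Notch1 per kb relative to Rbpj was 1.80, 1.90, 2.04 and 2.14 in controls 1 to 4 and 2.68 and 2.59 in the libraries labelled Foxp1cKO, both above every control.

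Maml1 (ENSMUSG00000050567.16, chr11:50255634-50292311, minus strand), the Mastermind coactivator that locks Notch onto RBPJ, was at 52.7, 58.0, 52.6 and 59.5 CPM in controls 1 to 4 and at 62.1 and 57.7 CPM in the libraries labelled Foxp1cKO. The second of these lay inside the control range. The log2 difference of Maml1 was 0.10 (95% interval -0.10 to 0.31, adjusted p = 0.639 by edgeR). It was 0.05 without the library labelled Foxp1cKO 1 and 0.06 without control 1 or without control 3, each a move of more than 1.5 times. Its paralog Maml3 was at 41.0, 44.5, 55.9 and 59.3 CPM in the controls and at 93.6 and 84.1 CPM in the libraries labelled Foxp1cKO, all 4 controls below both. With a log2 difference of 0.82 (SE 0.158, adjusted p = 0.196 by edgeR and 0.000908 by DESeq2) it had the largest value among the 73 other pathway genes in the table. Maml2 had a log2 difference of 0.51 (adjusted p = 0.365 by edgeR) and overlapped through control 4, at 44.5 CPM against 26.6 to 30.2 CPM in the other controls and 48.7 and 44.0 CPM in the libraries labelled Foxp1cKO. Without control 4, Maml2 passed, with a log2 difference of 0.70 (adjusted p = 0.0444 by edgeR). Crebbp, a histone acetyltransferase recruited by Mastermind, was at 136 to 161 CPM in the controls and at 200 and 169 CPM in the libraries labelled Foxp1cKO (log2 difference 0.34, adjusted p = 0.289 by edgeR).

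**Figure D3:**
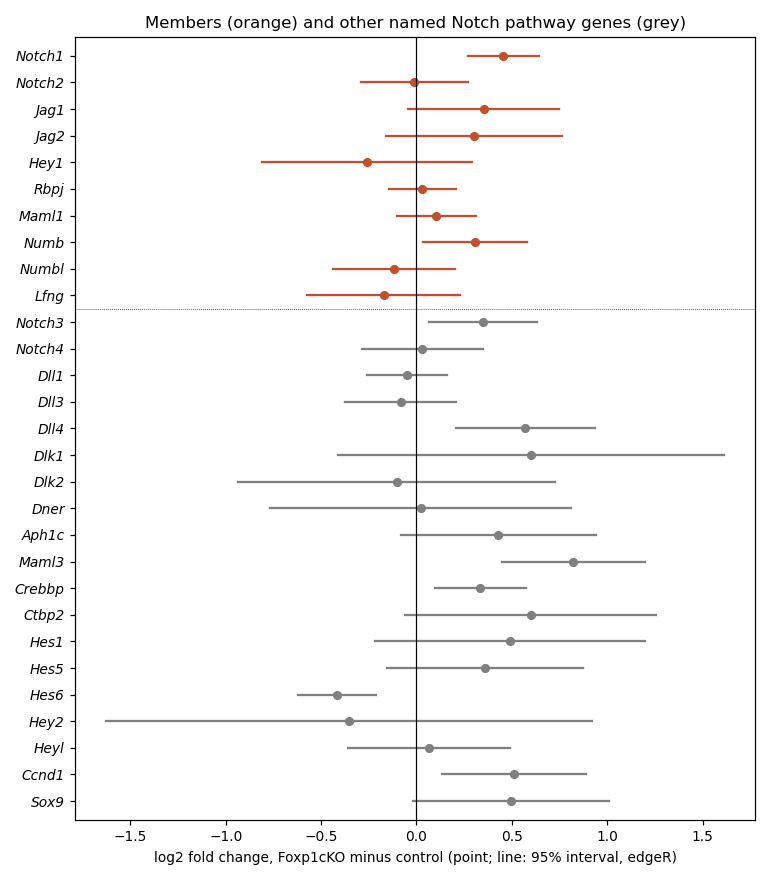
Log2 difference, libraries labelled Foxp1cKO minus control, of the members (orange) and other named Notch pathway genes (grey), as points with bars for the 95% interval from edgeR's quasi-likelihood fit and a line at 0. The intervals of Notch1 (0.27 to 0.64) and Numb (0.03 to 0.58) lie above 0 before adjustment for the number of genes, and the intervals of the other 8 members include 0.

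Hey1 (ENSMUSG00000040289.8, chr3:8663359-8667256, minus strand), a repressor turned on by Notch in many tissues including vessels, was at 80.8, 66.8, 44.1 and 78.7 CPM in controls 1 to 4 and at 54.2 and 58.9 CPM in the libraries labelled Foxp1cKO. The libraries labelled Foxp1cKO lay between control 3 and the other controls. Hey1 was the most variable member among the controls, with the highest 1.83 times the lowest. Hey1 had a log2 difference of -0.26 (95% interval -0.81 to 0.29, adjusted p = 0.667 by edgeR). Without control 3 it was -0.43 (adjusted p = 0.170), so 1 library moved the value by more than 1.5 times. The genes nearest to the log2 CPM profile of Hey1 were Scara3, Tex15 and Gpx8, with root mean square differences of 0.0611, 0.0645 and 0.0664.

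The other Hes and Hey genes did not share one direction. Hes1, a target that oscillates in RG, was at 33.3, 28.3, 18.1 and 43.8 CPM in controls 1 to 4 and at 45.3 and 41.5 CPM in the libraries labelled Foxp1cKO. Hes5, the target whose window is printed above, was at 27.8, 32.7, 29.4 and 47.6 CPM in the controls and at 47.4 and 40.8 CPM in the libraries labelled Foxp1cKO. In both genes control 4 was level with the libraries labelled Foxp1cKO and the other controls were below them, with log2 differences of 0.49 (adjusted p = 0.519 by edgeR) and 0.36 (adjusted p = 0.516). Hes6, which is expressed in cells that leave the progenitor state and opposes Hes1, was at 101, 102, 92.6 and 88.8 CPM in the controls and at 70.1 and 73.9 CPM in the libraries labelled Foxp1cKO. Both of the latter lay below every control, with a log2 difference of -0.42 (SE 0.0866) and an adjusted p of 0.232 by edgeR and 0.00828 by DESeq2. Hey2, at 1.63 to 6.62 CPM in the controls, had a log2 difference of -0.35 (95% interval -1.63 to 0.92), and Heyl, at 5.54 to 7.96 CPM, one of 0.07.

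Hey1 was also set against each of these genes within the libraries, with mixed results. Hey1 relative to Hes1 per kb was 1.51, 1.47, 1.52 and 1.12 in controls 1 to 4 and 0.747 and 0.885 in the libraries labelled Foxp1cKO. Relative to Hes5 it was 1.21, 0.854, 0.627 and 0.691 in the controls and 0.478 and 0.602 in the libraries labelled Foxp1cKO. Neither ratio overlapped between the groups, and both were lower in the libraries labelled Foxp1cKO. The ratios of Hey1 to Hes6, Hey2 and Heyl did overlap. Hey1 relative to Hes6 was 0.264 to 0.491 in the controls against 0.428 and 0.441. Relative to Hey2 it was 17.2 to 38.0 against 22.1 and 23.5, and relative to Heyl 12.5 to 18.2 against 12.4 and 12.9. Hey1 relative to Notch1 overlapped as well, at 0.620 to 1.23 in the controls against 0.536 and 0.637. These pairs were picked after the values were seen.

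**Figure D4:**
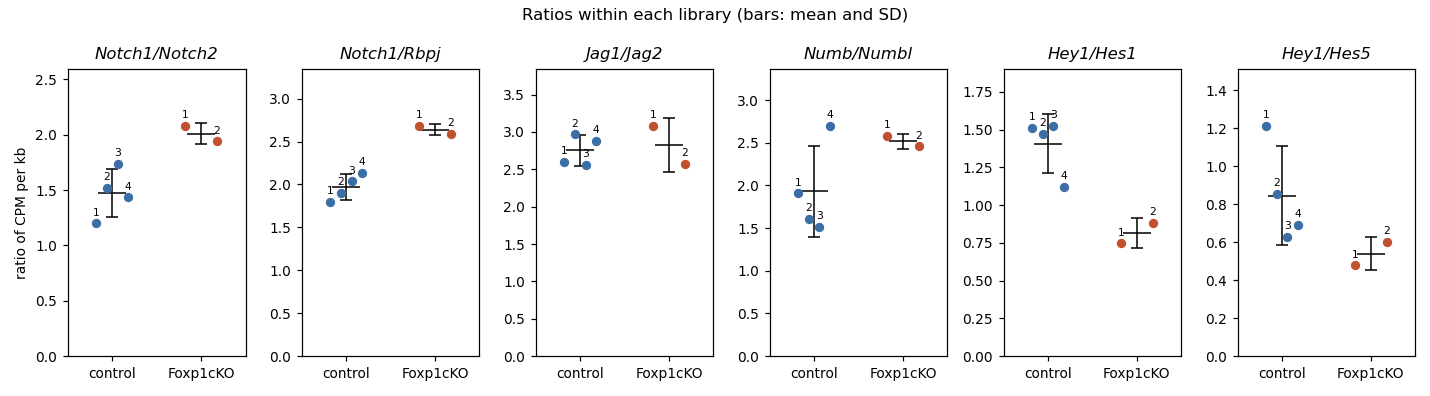
Ratios of CPM per kilobase between pairs of Notch pathway genes within each library, 1 panel per pair, with controls 1 to 4 (blue) and the libraries labelled Foxp1cKO 1 and 2 (orange) as points and bars for the mean and SD. Notch1 relative to Notch2 and to Rbpj is above every control in both libraries labelled Foxp1cKO, and Hey1 relative to Hes1 and to Hes5 is below every control. The groups overlap for Jag1 relative to Jag2, for Numb relative to Numbl, and for the pairs given in the text but not drawn. Notch1 to Notch2 and the pairs of Hey1 were picked after the values were seen.

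Numb (ENSMUSG00000021224.15, chr12:83794034-83921934, minus strand) encodes a membrane-bound adaptor that inhibits Notch and is passed unequally to daughter cells. It was at 53.1, 47.0, 48.2 and 60.9 CPM in controls 1 to 4 and at 65.1 and 64.4 CPM in the libraries labelled Foxp1cKO. Both of the latter lay above every control, with control 4 the nearest. The means were 52.3 ± 6.32 CPM (SD, n = 4) and 64.7 ± 0.512 CPM (n = 2), a log2 difference of 0.31 (SE 0.116, 95% interval 0.03 to 0.58). Its unadjusted p was 0.0323 and its adjusted p 0.350 by edgeR's quasi-likelihood test. DESeq2 gave an adjusted p of 0.208, and without control 4 the edgeR value was 0.106 with a log2 difference of 0.39.

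Numbl (ENSMUSG00000063160.12, chr7:27258433-27282144, plus strand), the paralog of Numb, was at 61.7, 64.6, 70.7 and 50.05 CPM in controls 1 to 4 and at 55.8 and 58.0 CPM in the libraries labelled Foxp1cKO. Both of the latter lay above control 4 and below the other controls. Numbl had a log2 difference of -0.12 (95% interval -0.44 to 0.20, adjusted p = 0.747 by edgeR). Single controls moved this value by more than 1.5 times, to -0.21 without control 4 (adjusted p = 0.252) and to -0.06 without control 3. Numb relative to Numbl per kb was 1.91, 1.61, 1.51 and 2.69 in controls 1 to 4 and 2.58 and 2.46 in the libraries labelled Foxp1cKO, so the groups overlapped and control 4 was the highest of all.

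Among the controls, the extreme values of the members lay mostly in controls 3 and 4. Control 3 was the highest control for Jag1, Jag2 and Numbl and the lowest for Notch2, Hey1, Maml1 and Lfng. Control 4 was the highest for Notch1, Maml1 and Numb and the lowest for Jag1, Jag2, Rbpj and Numbl. These libraries also held the extremes of the neuron markers, whose 12 genes summed to 6054 CPM in control 3 and 3206 CPM in control 4 against 4520 and 5515 CPM in controls 1 and 2, and of the progenitor markers, at 2689 and 3718 CPM against 3229 and 3272 CPM. The libraries labelled Foxp1cKO lay inside the control range for both lists, at 4368 and 4521 CPM for neurons and 3392 and 3189 CPM for progenitors. Cajal-Retzius markers, 8 in number, summed to 450 to 545 CPM in the controls and 555 and 654 CPM in the libraries labelled Foxp1cKO. The 8 intermediate progenitor markers summed to 733 to 979 CPM in the controls and to 686 and 783 CPM in the libraries labelled Foxp1cKO. Of these 8, 7 had a log2 difference below 0 and 1 above, with a median of -0.27. In 2 of them both libraries labelled Foxp1cKO lay below every control, where 13.1% of all genes did. Microglial markers summed to 29.3 to 60.1 CPM in the controls against 56.5 and 51.7 CPM, and meningeal markers to 97.7 to 593 CPM against 161 and 358 CPM, so both overlapped. The part of cell makeup in the members' values was not tested. Against controls 1 and 2 only, a comparison added after the data were seen, the log2 difference was 0.49 for Notch1, 0.37 for Numb, 0.43 for Jag1, 0.41 for Jag2, -0.38 for Hey1 and -0.32 for Lfng, and again 0 members passed, with adjusted p-values of 0.0833 to 0.876 by edgeR.

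**Figure D5:**
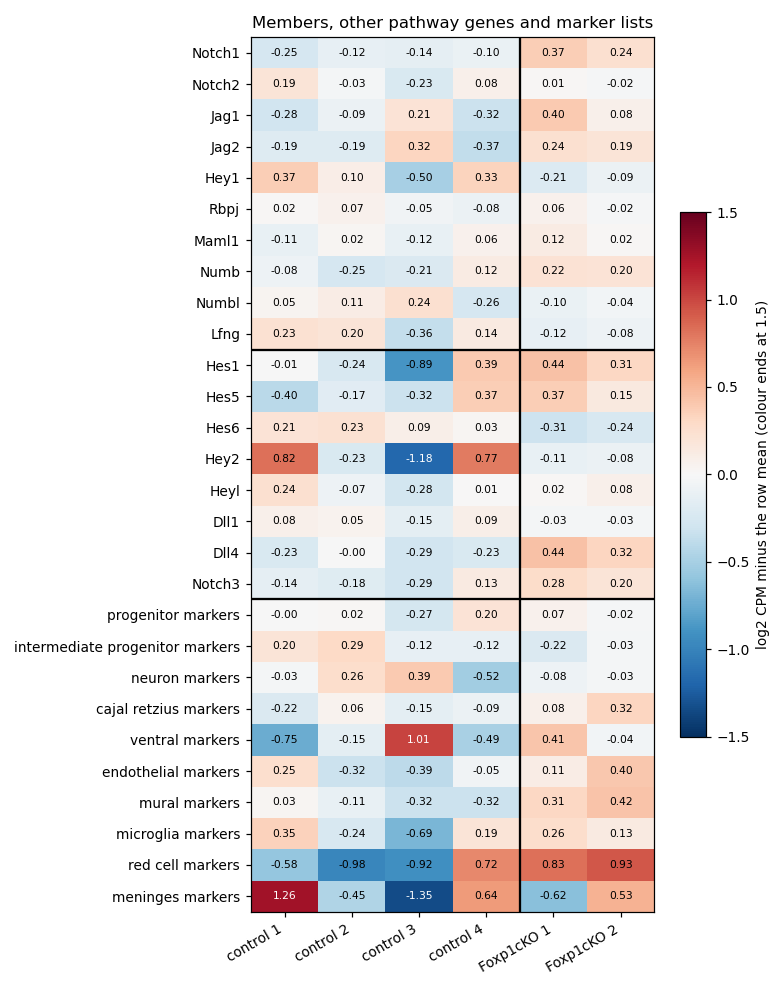
Log2 CPM of each member, of other pathway genes and of summed marker lists in the 6 libraries, centred on the mean over the libraries, as a heat map with blue below and red above 0 and the genes and lists as rows. Controls 3 and 4 differ from controls 1 and 2 in opposite directions for Numbl, Jag2 and the neuron markers, and Notch1 is above its mean only in the 2 libraries labelled Foxp1cKO.

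Beyond the members, 75 further pathway genes were listed by role and 73 were in the table. None passed edgeR's threshold in either direction, where 0.152% of all genes were called higher and 0% lower. Of the 72 with an adjusted p by DESeq2, 3 passed, Dll4 and Maml3 as higher and Hes6 as lower. By that test 2.06% of the 15067 genes with an adjusted p were called higher and 1.31% lower. The log2 difference by edgeR was above 0 in 39 of the 73 pathway genes and below 0 in 34, with a median of 0.022. Both libraries labelled Foxp1cKO lay above every control in 12 genes and below every control in 3, where 11.5% and 13.1% of all genes did. At an unadjusted p under 0.05, 7 were higher and 2 lower, where 6.53% and 6.5% of all genes were. By role, 4 of 14 corepressor genes lay above every control and 1 below, and 3 of 10 targets lay above and 1 below. Above every control were also 2 of 8 coactivator genes and 1 of 10 genes of receptor cleavage, Aph1c, a subunit of gamma-secretase (log2 difference 0.43, adjusted p = 0.444 by edgeR). Among 6 genes of ligand endocytosis and 10 of receptor turnover, the groups overlapped in every gene. Among the targets, Ccnd1, a cyclin of the entry into the cell cycle, was at 170 to 257 CPM in the controls and at 323 and 276 CPM in the libraries labelled Foxp1cKO (log2 difference 0.51, adjusted p = 0.291 by edgeR). Sox9, a transcription factor of RG, was at 56.0 to 101 CPM in the controls and at 117 and 103 CPM in the libraries labelled Foxp1cKO, with a log2 difference of 0.50 (adjusted p = 0.399 by edgeR). Ctbp2, a corepressor whose annotated exons overlap those of Fgfr2 on the same strand, was at 0.261 to 0.338 CPM in the controls and at 0.497 and 0.435 CPM in the libraries labelled Foxp1cKO, from 19 to 33 counts per library.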

How the data were processed

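RNA-Seq libraries of E12.5 lateral cortex were prepared by the authors with a stranded kit, and reads were aligned to mm10 with STAR and counted on genes with HTSeq 0.9.1 (versions per the submitters' processing notes). The authors deposited whole counts per gene after removing genes with low counts, and VST values of the same table on a log2-like scale made with DESeq2 1.30.1. The counts were tested here, and the deposited log2-like values were used in an alternative alone. The authors' model held the litter, which no label gives.

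Groups came from the labels. Each gene was tested with edgeR 4.0.16 in R 4.3.3 by the quasi-likelihood test (TMM, group alone, all 17068 genes, Benjamini-Hochberg adjusted p under 0.05), after the script had been tested on simulated data with 200 changed genes. Standard errors and 95% intervals are on the log2 scale. Symbols, positions and exon lengths came from GENCODE M21 (GRCm38, the assembly of mm10) for 17047 identifiers, and 21 were not found. Promoter windows came from RefSeq (GRCm38.p6). Hes7 and Rbpjl were not analysed here.

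The members and gene lists were chosen with earlier results of these data known. Named beside the 10 members were the other receptors, ligands and Hes and Hey genes, listed pathway genes whose groups did not overlap with a log2 difference of at least 0.3 in size or that passed the threshold, and the 3 genes nearest in profile to the members with the highest and lowest log2 difference. Mfng, Rfng, Maml2, Flt1, Nkx2-1 and 0610009E02Rik were named after their values were seen. Gm13568 was named for its overlap with Notch1 and was not in the count table.

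Library pairs differed by a chi-square statistic per gene of 25.9 to 193 between controls and 31.4 between the libraries labelled Foxp1cKO, so no library was a repeat of another. A floor of 3 counts was 0.0381 to 0.0596 CPM, and covers counting error only. The alternatives were DESeq2 1.42.0, limma 3.58.1 on the VST values, DESeq2's size factors, total counts, filterByExpr, a mean of at least 10 CPM, robust fitting, a replicate block and each library left out. A comparison with controls 1 and 2 only and the length of the longest coding transcript were added after the data were seen.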

Additional observations from a re-analysis of the deposited data

Results flagged for a closer look

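Among the controls of 29 Notch pathway genes examined for a library far from the others, 1 gene was found, Dlk1. It was at 24.6 CPM in control 3 and at 8.99, 9.06 and 11.3 CPM in controls 1, 2 and 4, so that the gap from control 3 to its nearest neighbour took 0.854 of the whole range, above Dixon's 95% critical value for 4 samples. Chance alone finds about 1 in 20 groups by this criterion. Control 3 was also the library with the highest sum of ventral forebrain markers, at 1006 CPM, and the part of those cells in the Dlk1 value was not tested.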

How the results depend on the processing

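The count of genes past the threshold, 26 in all, was 507 with DESeq2, 14 with a mean of at least 10 CPM, 63 against controls 1 and 2 only, and 2 to 96 when each library was left out (6, 2 and 96 without controls 1, 2 and 4, and 9 and 3 without the libraries labelled Foxp1cKO 1 and 2). Members past the threshold numbered 0 in every alternative except DESeq2, with 1, and other pathway genes 0 except for 3 with DESeq2, 1 against controls 1 and 2 only, and 0 to 1 over the left-out libraries. The members' median log2 difference ran from 0.020 to 0.098 over the 15 alternatives. That of the other pathway genes was 0.050 with a mean of at least 10 CPM and -0.014 to 0.036 over the left-out libraries. Notch2 turned to 0.0039 with total counts and 0.018 with a mean of at least 10 CPM, and ran from -0.098 to 0.036 over the left-out libraries. Rbpj turned to -0.023 against controls 1 and 2 only and ran from -0.0099 to 0.058 over the left-out libraries. The causes were not tested. The labels number the libraries, and numbers 1 and 2 occur in both groups, but nothing says that they mark a shared litter. Deviations from the group means correlated at -0.0911 for same-numbered libraries and at 0.0911 for crossed ones. With 2 libraries labelled Foxp1cKO these values are the same number with opposite sign by construction, so they cannot decide on a pairing. With the replicate block, 0 genes passed the threshold, the members' median was 0.045, Rbpj was at -0.023, and controls 3 and 4 no longer bore on the difference. Per length, levels with the longest coding transcript moved to 32.4 for Notch1, 27.9 for Hey1, 25.6 for Rbpj, 22.4 for Numbl and 3.16 CPM per kb for Jag2. With 4 libraries against 2, log2 differences no larger than the reach of the printed 95% intervals were not detectable. Those intervals are not adjusted for the number of genes, so larger differences could also miss the threshold. Notch1, for example, had an interval above 0 and an adjusted p of 0.152 by edgeR.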
